A study of Mus musculus with 18 samples.

Results

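The 36 genes described here carry out glycolysis or respond to low oxygen, and were chosen because a skin flap has a reduced blood supply. Of the 27743 genes in the deposited table, all 36 on the list were present and all 36 passed the filter on low values, 21 for glucose and lactate transport, glycolytic enzymes and their regulators and 15 for the hypoxia response. RNA was sequenced from mouse skin flaps collected at day 7, with 3 libraries in each of 6 groups. Flaps of D15L100, D15L150, D15L200, D100L150 and D150L150 had a mesh-like spacer, made by near-field electrostatic printing in several diameters and spacings, laid beneath them after modeling, and Control flaps were left untreated after modeling. The labels give no unit or meaning for D and L, and do not state strain, sex, age or the number of animals. The p-values below therefore reflect variation among libraries only, and part of it may be technical. Values are FPKM, counted fragments divided by gene length and by library depth, so that they can be compared between genes, and all differences are of log2(FPKM + 1). In whole flap tissue, fewer cells of a type and less RNA per cell cannot be told apart.

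Glycolysis splits glucose into pyruvate in the cytosol and yields ATP without oxygen, and lactate dehydrogenase then turns pyruvate into lactate, which leaves the cell through monocarboxylate transporters. In oxygenated cells, prolyl hydroxylases of the EGLN family mark the transcription factor subunit HIF1A for destruction. When oxygen falls, HIF1A persists, binds DNA at a short core motif, ACGTG or GCGTG, and raises transcription of glycolytic enzymes and of genes for pH control, mitochondrial turnover and collagen maturation. Proliferating and wound-activated keratinocytes, neutrophils and skeletal muscle all use glycolysis heavily, and muscle has its own forms of several enzymes.

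Promoter sequences are shown because HIF binds DNA directly. RefSeq promoter windows (GRCm38.p6, 250 bases before to 50 bases after a transcript start) were available for 33 of the 36 members, in 48 windows. ACGTG was present on either strand in at least 1 window of 23 members (69.7%), and in 28.7% of the 10313 tested genes that have a window. GCGTG was present in 22 members (66.7%) and in 53.7% of those genes. ACGTG and its reverse complement CACGT overlap in CACGTG, where both were counted. The median G+C content was 63.2% for members and 60.3% for tested genes. Known HIF targets and regulators were put on the list by choice, so these shares describe the list, and a match is not a bound site. The windows of 5 members follow, 5′ to 3′ on the gene's strand, with both motifs in capitals. Chosen after their values were seen, they are Car9, Egln3, Ero1a and Bnip3, whose 2 highest libraries were the same pair, described next, and Pgam1, whose limma p against Control in D100L150 was the smallest of the 36 members.
Car9, chr4:43506776-43507075, plus strand: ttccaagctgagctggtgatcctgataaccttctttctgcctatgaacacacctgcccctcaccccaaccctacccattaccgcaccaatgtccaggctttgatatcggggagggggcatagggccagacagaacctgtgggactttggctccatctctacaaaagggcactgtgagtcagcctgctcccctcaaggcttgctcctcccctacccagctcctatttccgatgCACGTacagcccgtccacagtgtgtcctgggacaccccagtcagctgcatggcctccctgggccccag
Egln3, chr12:54203825-54204124, minus strand: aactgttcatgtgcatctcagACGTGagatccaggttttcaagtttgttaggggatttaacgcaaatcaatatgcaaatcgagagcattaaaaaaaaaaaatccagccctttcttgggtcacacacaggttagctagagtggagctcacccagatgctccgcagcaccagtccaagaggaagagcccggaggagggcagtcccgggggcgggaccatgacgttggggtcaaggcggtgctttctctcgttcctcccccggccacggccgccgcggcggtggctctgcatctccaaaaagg
Ero1a, chr14:45318523-45318822, minus strand: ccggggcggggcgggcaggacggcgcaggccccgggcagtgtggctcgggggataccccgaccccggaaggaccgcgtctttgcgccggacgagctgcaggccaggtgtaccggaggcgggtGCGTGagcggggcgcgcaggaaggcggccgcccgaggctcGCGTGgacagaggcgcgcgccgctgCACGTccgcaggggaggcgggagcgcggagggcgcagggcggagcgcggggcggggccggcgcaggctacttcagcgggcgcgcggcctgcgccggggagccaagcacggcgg
Bnip3, chr7:138909457-138909756, minus strand: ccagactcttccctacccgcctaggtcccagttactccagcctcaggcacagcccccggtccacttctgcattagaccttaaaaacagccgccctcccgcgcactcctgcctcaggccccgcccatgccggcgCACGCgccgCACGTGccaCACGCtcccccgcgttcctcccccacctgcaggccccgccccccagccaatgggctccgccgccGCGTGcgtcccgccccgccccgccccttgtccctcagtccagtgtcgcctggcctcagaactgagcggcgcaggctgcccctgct
Pgam1, chr19:41911621-41911920, plus strand: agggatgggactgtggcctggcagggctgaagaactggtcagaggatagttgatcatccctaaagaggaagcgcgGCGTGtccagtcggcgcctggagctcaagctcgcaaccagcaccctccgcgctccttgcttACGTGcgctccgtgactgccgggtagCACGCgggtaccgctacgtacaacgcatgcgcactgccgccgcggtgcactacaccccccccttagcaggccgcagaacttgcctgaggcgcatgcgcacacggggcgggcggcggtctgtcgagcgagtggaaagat
Car9 and Egln3 held a single ACGTG, close to the transcript start in Car9 and near the far end of the window in Egln3. The Bnip3 and Ero1a windows held both motifs, in Bnip3 as a cluster. No window of Tpi1, Gpi1 or Car12 held either motif, which says only that these letters are not in these windows.

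Libraries held 28422344 to 35327357 counted fragments, and member counts ranged from 49 fragments for Car9 to 136865 for Pkm. All 10 basal keratinocyte markers and all 15 skeletal muscle markers passed the filter on low values, so markers of both tissues were present. The libraries D15L200 3 and D100L150 1 stood apart for these genes. D100L150 1 was the highest of the 18 libraries for 29 of 36 members, against 13.9% of all 13078 genes tested, and D15L200 3 was the highest for 4. For 22 members they were the top pair among all 18, a pattern of 4.16% of genes tested. The summed FPKM of 10 neutrophil markers was 9835 in D15L200 3 and 11327 in D100L150 1, against 1424 and 1064 in the other D15L200 libraries and 2305 and 3195 in the other D100L150 libraries. It spanned 1224 to 2870.2 in D15L100, 822 to 1574 in D15L150, 1337 to 5738 in D150L150 and 1123 to 7225 in Control, where the highest was Control 1. Of these 10 markers 8 passed the filter, and Camp stayed under 1 FPKM throughout. Il1b, an inflammatory cytokine gene, was at 678 FPKM in D15L200 3 and 689.7 in D100L150 1, and at 564 in Control 1. S100a8 and S100a9 on the neutrophil list are also on the list of wound-activated keratinocytes. Of the 13 wound-activated keratinocyte markers, limma called 11 higher in D100L150, 11 in D150L150 and 8 in D15L200. Over all genes it called 1.38%, 2.42% and 1.56% there, in either direction. In D15L150 and D15L100 it called 0 of these markers and 0% of all genes. At an unadjusted p under 0.05, 11 markers were higher in D15L150 and 6 in D15L100, where 19.8% and 3.3% of all genes passed in either direction. Higher in every library than in Control were 11 markers in D15L150 and 3 in D15L100, beside 12.4% and 2.1% of all genes. Their summed FPKM spanned 4266 to 8143 in D15L100, 6233 to 10842 in D15L150, 8535 to 20796 in D15L200, 12946 to 24436 in D100L150 and 12695 to 17108 in D150L150, against 3396 to 7590.01 in Control, with the highest sums in D100L150 1 and D15L200 3. The part of all these cells in the member values was not tested.

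**Figure D1:**
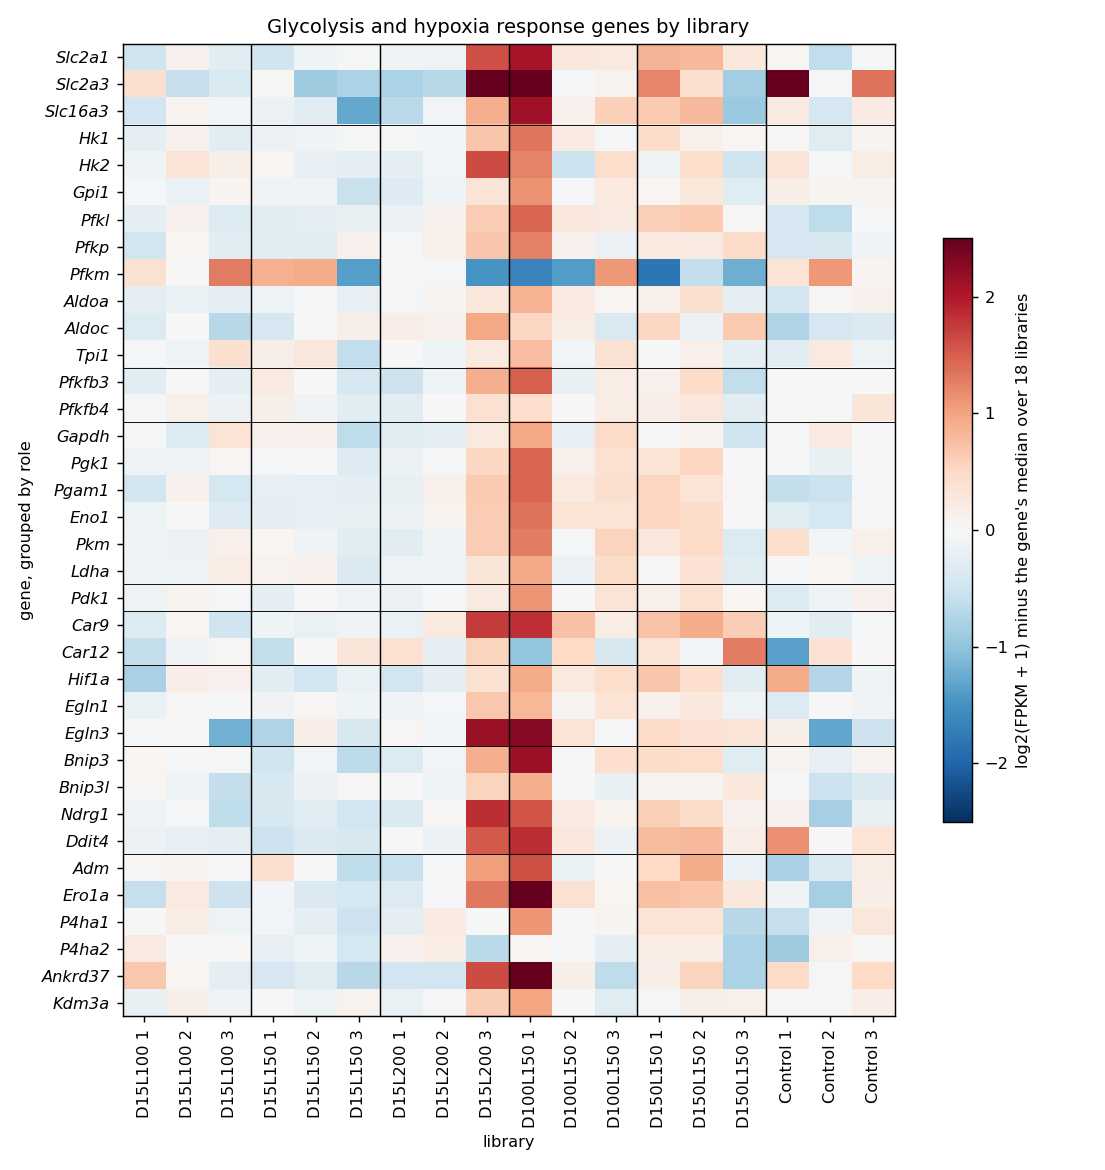
Each row is 1 of the 36 genes and each column 1 library, and colour gives log2(FPKM + 1) minus the gene's median over the 18 libraries, cut off at the ends of the scale, with groups divided by vertical lines and roles by horizontal lines. D15L200 3 and D100L150 1 are the red columns, and Pfkm, the muscle form of phosphofructokinase, runs opposite to most other genes.

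No member passed the threshold of an adjusted p under 0.05 in any comparison with Control. Taking the mean of the 5 spacer groups against Control, 0 of 36 members passed in limma, where 3.56% of all genes did, and 3 members had an unadjusted p under 0.05, where 22.4% of all genes did. A voom fit on fragment counts also passed 0. The median log2 difference of the members was 0.17, with 28 of 36 above 0, while the median of all genes tested was -0.04 with 43.4% above 0. Without D15L200 3 and D100L150 1 the members' median was 0.09, and 22 were above 0, and without Control 3 it was 0.27, with 28 above 0. The smallest p values were those of Aldoc, Pgam1 and Pfkl, with log2 differences of 0.60 ± 0.23, 0.53 ± 0.23 and 0.53 ± 0.23 (SE) and limma adjusted p = 0.142, 0.189 and 0.196. With 15 spacer libraries set against 3 Control libraries, no member was free of overlap between them, beside 0.795% of all genes higher and 0.719% lower.

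With all libraries in the fit, the members' median difference from Control was highest in D100L150. There 34 of 36 members had a positive log2 difference, with a median of 0.53, where 42.5% of all genes were positive and their median was -0.05. No member passed in limma or voom, beside 1.38% of all genes in limma, and 12 members, all higher, had an unadjusted p under 0.05, beside 9.21% of all genes in that direction. Pgam1, which moves a phosphate group on glycerate, was at 153 ± 75.2 FPKM in D100L150 and 67.6 ± 15.8 in Control (SD, n = 3 each), a log2 difference of 1.08 ± 0.29 (SE, adjusted p = 0.0765 with limma). Eno1, the ubiquitous enolase, had 0.93 ± 0.26, adjusted p = 0.0821, and Pfkl, a phosphofructokinase form, 1.01 ± 0.30, adjusted p = 0.0953 in the same limma fit. Slc2a1, Pfkl, Pgk1, Pgam1, Eno1, Car9 and Egln1 were higher in every D100L150 library than in every Control library, which is 7 of 36 members beside 11% of all genes. Without D15L200 3 and D100L150 1 the members' median was 0.24, 29 were above 0 and 5 had an unadjusted p under 0.05, beside 11.6% of all genes. With muscle marker level as a covariate it was 0.38, with 31 above 0 and 3 at an unadjusted p under 0.05, beside 14.1%. Leaving out D100L150 2 instead let Pgam1 and Pdk1 pass, with adjusted p = 0.0471 and 0.0479 in limma, in a fit that called 2.32% of all genes. In the same group 11 of 13 wound-activated keratinocyte markers were called higher, as given above. Of 7 erythroid markers 5 were tested, none passed in limma, and all 5 were higher in every D100L150 library than in Control, with a median log2 difference of 2.24. Their summed FPKM was 3507, 859.7 and 791 in D100L150, against 666, 114 and 184 in Control. Their part in the member values was not tested.

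In D150L150 flaps the members' median log2 difference from Control was 0.22, with 27 of 36 above 0, against a median of 0.0018 and 50.3% for all genes. None passed in limma or voom, beside 2.42% of all genes in limma, and 5 had an unadjusted p under 0.05, beside 20.4%. There 11 members were higher in all 3 libraries than in any Control library, beside 14.3% of all genes. These were Slc2a1, Pfkl, Pfkp, Aldoc, Pgam1, Eno1, Car9, Egln3, Bnip3l, Ndrg1 and Ero1a. Pfkm was lower in all 3 (beside 12.1% of all genes), 35.7 ± 15.2 FPKM in D150L150 and 117 ± 45.05 in Control (SD, n = 3 each). Its log2 difference was -1.70 ± 0.75 (SE, adjusted p = 0.217 with limma). With muscle marker level added to the fit as a covariate, the members' median was -0.0047, and 18 of 36 were above 0. In that fit 1 member had an unadjusted p under 0.05, beside 10.7% of all genes, and 0% of all genes passed in limma. All 3 D150L150 libraries had a lower muscle level than every Control library, so level and group are hard to separate there. The part of muscle in the member values was not tested. The summed FPKM of 10 basal keratinocyte markers was 6109 to 7444 in D150L150 and 5021 to 6102 in D100L150, against 1302 to 3707 in Control. In D15L200 this sum was also wholly above Control, at 4432 to 6898. It was 3183 to 7508 in D15L150 and 3176 to 4329 in D15L100, which overlapped Control. The part of basal keratinocytes in the member values was not tested. Leaving out D15L200 3 and D100L150 1, neither of which is a D150L150 or Control library, kept the Car9 difference at 0.90 and lowered its SE to 0.17, against 0.42 with all libraries. Its adjusted p was then 0.0298 in limma, beside 1.93% of all genes called. The pair was left out because members, Car9 among them, were highest there, so this call follows from that choice and is not support for a Car9 difference.

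No member passed in the D15 groups either. In D15L200 27 of 36 members were above 0 with a median of 0.19, and without D15L200 3 and D100L150 1 these values were 19 and 0.02, while 40.8% of all genes were above 0. Leaving out D15L200 1 instead gave 34 above 0 and a median of 0.41, with 6 members at an unadjusted p under 0.05 beside 11.7% of all genes. None passed in limma or voom, where 1.56% of all genes passed in limma, and Aldoc alone had an unadjusted p under 0.05, beside 17.3% of all genes. In D15L150 12 and in D15L100 18 of 36 members were above 0, with medians of -0.03 and 0.0023. Neither comparison passed any of the 13078 genes tested in limma (0%), and no member passed in voom. In both, 0 members had an unadjusted p under 0.05, beside 19.8% of all genes in D15L150 and 3.3% in D15L100. Above 0 were 43.3% of all genes in D15L150 and 46.4% in D15L100. Free of overlap with Control were Pfkp and Aldoc, higher in D15L200 (beside 11.2% of all genes), and Pfkm, lower there (13.8%). Gpi1, Ddit4 and Ankrd37 were lower in every D15L150 library than in Control (14%), and Gpi1 and Ddit4 in every D15L100 library (3.97%). No member was higher in every library of D15L150 or D15L100 than in Control, beside 12.4% and 2.1% of all genes.

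Spacer groups were compared with each other by moderated F tests, which ask whether the number after D (15, 100 and 150 at L150) or after L (100, 150 and 200 at D15) goes with a difference. Along D, 0 members passed in limma and in voom, as did 0% of all genes, and 6 of 36 members had an unadjusted p under 0.05, beside 5.74% of all genes. Those with the smallest p were Eno1, Pgam1 and Pfkl, each with adjusted p = 0.743 in limma. Their highest mean lay in D100L150, not at an end of the series, with D100L150 1 far above its group. There Eno1 stood at 1012, 499 and 500.3 FPKM, Pgam1 at 239, 104 and 115, and Pfkl at 73.9, 32.2 and 31.3. With D100L150 1 left out, 2 members had an unadjusted p under 0.05 along D, beside 3.09% of all genes. Over single leave-outs this member count ranged from 1 to 12. In D150L150 Pgam1 averaged 109 FPKM and Pfkl 36.7. Eno1 averaged 342 ± 8.04 FPKM in D15L150, 670.4 ± 296 in D100L150 and 505 ± 92.7 in D150L150 (SD, n = 3 each). Along L, 0 members passed in limma and in voom, as did 0% of all genes, and 0 had an unadjusted p under 0.05, beside 2.89%. Over all 6 groups 0 members passed in either tool, beside 0.0765% of all genes in limma, and 5 had an unadjusted p under 0.05, beside 13.4%. These comparisons share libraries and the Control group, so their values are not independent of each other.

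**Figure D2:**
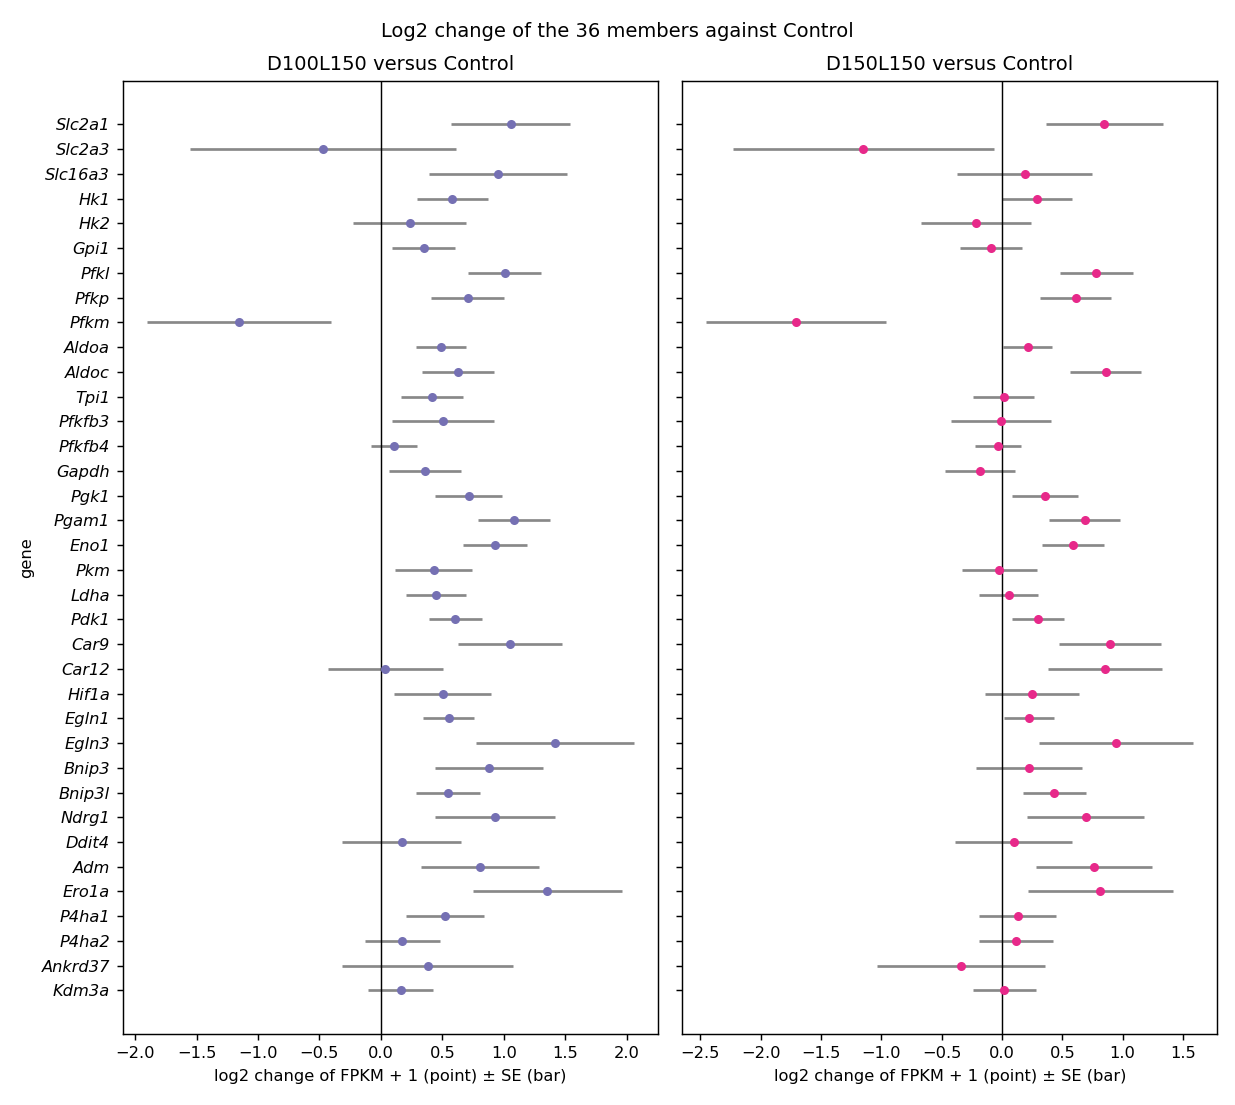
Points give the log2 difference of FPKM + 1 from Control for each of the 36 genes in D100L150 (left) and D150L150 (right), and bars the standard error of the limma fit. In D100L150, 34 points lie right of 0, and Pfkm lies left of 0 in both panels.

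Glucose enters cells through facilitated transporters of the SLC2A family. Slc2a1 (GLUT1) is a form of epidermis. It stood at 45.7, 70.3 and 54.2 FPKM in D15L100, 45.7, 59.95 and 63.1 in D15L150 and 61.2, 59.7 and 199 in D15L200. In D100L150 Slc2a1 stood at 272, 78.2 and 77.1 FPKM and in D150L150 at 119, 115 and 78.2, against 66.9, 42.3 and 62.8 in Control. The D100L150 and D150L150 libraries all lay above the 3 Control libraries, and D100L150 1 and D15L200 3 lay far above their own groups. The log2 difference from Control was 1.06 ± 0.48 (SE, adjusted p = 0.2297 with limma) in D100L150 and 0.85 ± 0.48 in D150L150, adjusted p = 0.339 in the same fit. Slc2a3 (GLUT3) has high affinity for glucose and is used by neurons and leukocytes, and it stood at 3.68, 1.41 and 1.74 FPKM in D15L100, 2.62, 0.9403 and 1.05 in D15L150 and 1.06, 1.19 and 41.3 in D15L200. In D100L150 Slc2a3 stood at 22.5, 2.45 and 2.81 FPKM and in D150L150 at 7.28, 3.68 and 0.945, against 24.7, 2.52 and 8.12 in Control. It varied more than any other member, 43.95-fold between its extremes, and its high libraries were D15L200 3, Control 1 and D100L150 1, those with the highest neutrophil marker sums. Its log2 difference for the mean of the spacer groups was -1.17 ± 0.84 (SE, adjusted p = 0.432 with limma). Slc16a3 (MCT4), which exports lactate, ranged from 17.7 to 196 FPKM, lowest in D15L150 3 and highest in D100L150 1.

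In the preparatory steps, hexokinases trap glucose as its phosphate, phosphofructokinase commits it to glycolysis and aldolase splits it. Hk1 supplied 39.4 to 68.6% of the summed FPKM of Hk1 and Hk2, with the lowest share in D15L200 3, where Hk2, the inducible form, was at 48.7 FPKM against 12.8 and 14.2 in the other D15L200 libraries. Tpi1 (triose phosphate isomerase) was the most abundant gene of these steps, and it stood at 405, 379 and 545 FPKM in D15L100, 455, 501 and 269 in D15L150 and 410.4, 383 and 489.9 in D15L200. In D100L150 Tpi1 stood at 705, 393 and 535 FPKM and in D150L150 at 415, 449 and 347, against 338, 488 and 379 in Control. Its groups overlapped Control in every comparison, and it varied only 2.62-fold over the 18 libraries. Aldoc is the brain form of aldolase and was scarce, and it stood at 1.47, 2.08 and 0.932 FPKM in D15L100, 1.33, 2.16 and 2.45 in D15L150 and 2.48, 2.36 and 5.09 in D15L200. In D100L150 Aldoc stood at 3.45, 2.57 and 1.398 FPKM and in D150L150 at 3.45, 1.82 and 3.94, against 0.852, 1.32 and 1.42 in Control. All D15L200 and D150L150 libraries lay above the Control libraries, with log2 differences of 0.93 ± 0.29 (SE, adjusted p = 0.1302 with limma) in D15L200 and 0.86 ± 0.29 in D150L150, adjusted p = 0.127. Aldoa, the general form, was listed at only 5.19 to 14.5 FPKM over the 18 libraries, while Gpi1 and Tpi1, enzymes before and after it, averaged 177 and 438 FPKM. Aldoa has near-identical retrogene copies, Aldoart1 and Aldoart2, which were listed at no more than 0.29 and 0.083 FPKM. It shares only 0.67% of its exonic bases with Fam57b on the opposite strand in GENCODE M21. That annotation also lists Aldoa as separate adjacent gene entries, chr7:126795234-126800751 and chr7:126800790-126809108. Why Aldoa was listed so low was not tested, and its level is uncertain.

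The 3 phosphofructokinase forms followed the skeletal muscle level of a library in different directions. Pfkm, the muscle form (chr15:98092589-98132451 in GRCm38), stood at 103, 77.9 and 194 FPKM in D15L100, 147, 150.01 and 29.6 in D15L150 and 79.7, 77.1 and 27.6 in D15L200. In D100L150 Pfkm stood at 24.3, 29.4 and 168 FPKM and in D150L150 at 21.8, 51.9 and 33.3, against 100.5, 168 and 82.7 in Control. Its lowest libraries were D150L150 1 and D100L150 1, and it spread widely within groups. Across the 18 libraries Pfkm followed the mean log2 level of 15 skeletal muscle markers with r = 0.986 (permutation p = 1e-05, adjusted p = 0.00018) and rho = 0.967 (permutation p = 1e-05, adjusted p = 0.00024), over 72 relations computed. Without the 2 libraries of most extreme muscle level, D100L150 1 and D150L150 1, r was 0.982, and on deviations from group means it was 0.986. Its p is the smallest that 100000 permutations can give. The permutations ignored the groups, and no p was computed for values on deviations from group means.

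Pfkp, the platelet form, went the other way, with r = -0.816 (permutation p = 2e-05, adjusted p = 0.000288) and rho = -0.822 (permutation p = 4e-05, adjusted p = 0.00048), r = -0.82 without those libraries and -0.72 within groups. Pfkl, the liver form, had r = -0.748 (-0.64 without those libraries, -0.594 within groups) and rho = -0.738 (permutation p = 0.00011 and 0.00061, adjusted p = 0.000775 and 0.00314). As a share of the 3 forms' summed FPKM, Pfkm made up 14.5% in D100L150 1 and 81.7% in D15L100 3, its extremes. In all, 18 of 36 members had r of -0.5 or lower with the muscle level, beside 14.1% of all genes, and 1 member, Pfkm, had r of 0.5 or higher, beside 12.8%. These points share libraries, and FPKM values of a library share 1 total. No batch label is given. Against the basal keratinocyte level, 4 members had r of 0.5 or higher, beside 17.7% of all genes. Aldoc had r = 0.769 and rho = 0.802 (permutation p = 0.00014 and 0.00011, adjusted p = 0.000775 and 0.00088), which was r = 0.768 without Control 1 and D15L100 1 and 0.539 within groups. The summed FPKM of the 15 muscle markers spanned 8532 to 20878 in D15L100, 4043 to 17731 in D15L150, 3627 to 10472 in D15L200, 2637 to 15730.00 in D100L150 and 2353 to 4700.4 in D150L150, against 9119.8 to 19856 in Control. All 3 D150L150 libraries thus lay below every Control library in muscle markers.

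**Figure D3:**
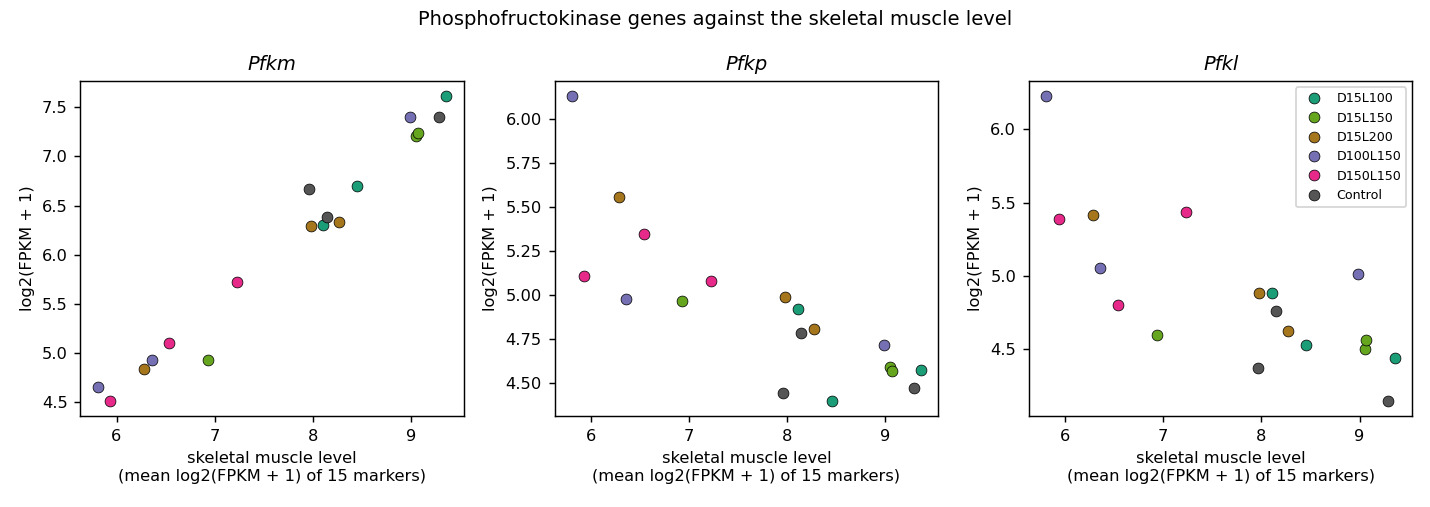
Each point is 1 library, coloured by group, with the skeletal muscle level (mean log2(FPKM + 1) of 15 markers) on the x axis and log2(FPKM + 1) of Pfkm, Pfkp or Pfkl on the y axis. Pfkm climbs with the muscle level (r = 0.986, n = 18), while Pfkp and Pfkl are lower where it is high.

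The sugar phosphate made by PFKFB enzymes activates phosphofructokinase. Pfkfb3, the inducible kinase-dominant form, stood at 9.501, 11.7 and 9.86 FPKM in D15L100, 13.8, 11.7 and 8.38 in D15L150 and 7.83, 10.9 and 22.99 in D15L200. In D100L150 Pfkfb3 stood at 34.7, 10.1 and 13.4 FPKM and in D150L150 at 12.7, 16.4 and 7.29, against 11.3, 11.7 and 11.9 in Control. No spacer group lay wholly above or below the narrow Control range, and D100L150 1 and D15L200 3 were highest. Pfkfb4, a related form, varied least of the 36 members, and it stood at 7.75, 8.76 and 7.12 FPKM in D15L100, 8.898, 7.404 and 6.35 in D15L150 and 6.36, 7.95 and 10.7 in D15L200. In D100L150 Pfkfb4 stood at 10.97, 7.83 and 9.203 FPKM and in D150L150 at 8.99, 9.86 and 6.42, against 7.94, 7.71 and 10.04 in Control. Every spacer group overlapped Control, with a log2 difference of -0.05 ± 0.15 (SE, adjusted p = 0.871 with limma) for the mean of the spacer groups.

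The pay-off steps hold several of the most abundant members, though Tpi1 of the preparatory steps ranked 2 among the 36. Eno1 was the highest of all 36 on average, and it stood at 361, 397 and 314 FPKM in D15L100, 333, 344 and 349 in D15L150 and 356, 418 and 614 in D15L200. In D100L150 Eno1 stood at 1012, 499 and 500.3 FPKM and in D150L150 at 573, 543 and 399.8, against 318, 292 and 393 in Control. Every D100L150 and D150L150 library exceeded every Control library. For the mutase before it, Pgam1 stood at 63.02, 93.5 and 64.4 FPKM in D15L100, 75.5, 75.6 and 74.7 in D15L150 and 76.9, 94.7 and 138 in D15L200. In D100L150 Pgam1 stood at 239, 104 and 115 FPKM and in D150L150 at 127, 110.5 and 88.6, against 57.3, 59.7 and 85.7 in Control. Again the D100L150 and D150L150 libraries all stood above Control, while D15L100 and D15L150 overlapped it. The log2 difference in D150L150 was 0.69 ± 0.29 (SE, adjusted p = 0.208 with limma) for Pgam1 and 0.59 ± 0.26 for Eno1, adjusted p = 0.221. Pgk1, which makes ATP, was at 419 ± 218 FPKM in D100L150 and 235 ± 16.9 in Control (SD, n = 3 each), with 0.72 ± 0.27 (SE, adjusted p = 0.159 with limma). Pkm, Ldha and Gapdh averaged 262, 222 and 111 FPKM over all libraries, with log2 differences in D100L150 of 0.43 ± 0.31, 0.45 ± 0.24 and 0.36 ± 0.29 (SE, limma adjusted p = 0.441, 0.304 and 0.497). Gapdh, Eno1, Pgam1, Ldha and Tpi1 have processed copies elsewhere in the genome, so reads they share can be counted uncertainly. Eno1b, a retrocopy of Eno1, was listed at 5.05 to 24.1 FPKM.

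At mitochondrial entry, Pdk1 encodes a kinase that shuts off pyruvate dehydrogenase. Measured per library, Pdk1 stood at 9.52, 11.2 and 10.3 FPKM in D15L100, 8.87, 10.4 and 9.81 in D15L150 and 9.398, 10.1 and 12.5 in D15L200. In D100L150 Pdk1 stood at 23.8, 10.7 and 13.7 FPKM and in D150L150 at 11.5, 13.98 and 10.9, against 8.06, 9.66 and 11.5 in Control. D100L150 1 was far above the other libraries, and D100L150 2 lay inside the Control range. The log2 difference in D100L150 was 0.61 ± 0.21 (SE, adjusted p = 0.133 with limma).

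**Figure D4:**
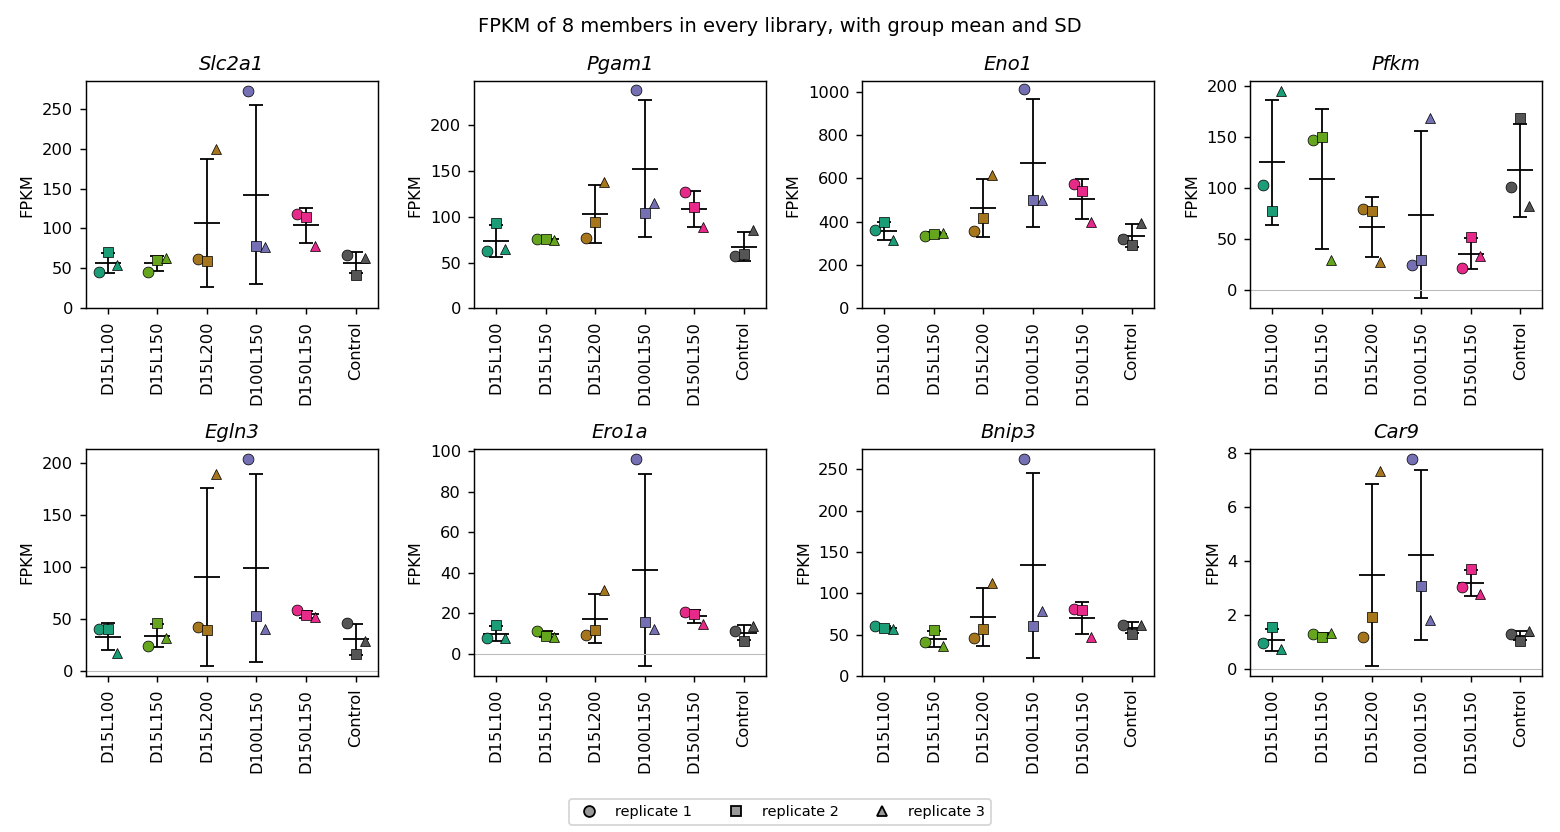
FPKM of 8 members in each library, with circles, squares and triangles for replicates 1, 2 and 3, horizontal bars for group means and error bars for the SD (n = 3). In Egln3, Ero1a and Bnip3 the D100L150 1 library lies far above the others of its group, while the 3 D150L150 libraries of Egln3 lie close together above Control.

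Carbonic anhydrases at the cell surface remove acid made by glycolysis. Car9, a classical HIF target (chr4:43506966-43513729 in GRCm38), stood at 0.956, 1.54 and 0.736 FPKM in D15L100, 1.29, 1.19 and 1.32 in D15L150 and 1.196, 1.91 and 7.34 in D15L200. In D100L150 Car9 stood at 7.75, 3.09 and 1.81 FPKM and in D150L150 at 3.05, 3.71 and 2.79, against 1.300, 1.04 and 1.39 in Control. Among Control and D15 libraries D15L200 3 alone stood high, and all D100L150 and D150L150 libraries lay above Control. Its log2 difference was 1.05 ± 0.42 (SE, adjusted p = 0.175 with limma) in D100L150 and 0.90 ± 0.42 in D150L150, adjusted p = 0.251, on a scale that understates low genes. Car9 counts were small, 49 to 558 fragments. Car12, a second surface form, stood at 10.04, 14.8 and 16.1 FPKM in D15L100, 10.1, 15.9 and 19.5 in D15L150 and 20.7, 13.4 and 23.6 in D15L200. In D100L150 Car12 stood at 7.51, 22.5 and 11.6 FPKM and in D150L150 at 20.3, 15.1 and 39.5, against 5.55, 20.5 and 15.7 in Control. Unlike Car9 it was low in D100L150 1 and in Control 1, and highest in D150L150 3. Car12 followed the basal keratinocyte level with r = 0.745 and rho = 0.633 (permutation p = 0.00047 and 0.00555, adjusted p = 0.00242 and 0.0182), r = 0.553 without Control 1 and D15L100 1 and 0.779 within groups.

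Control of HIF itself involves Hif1a and the hydroxylases that degrade its protein. Hif1a, regulated mainly at the protein level, stood at 36.5, 73.4 and 70.1 FPKM in D15L100, 54.5, 46.2 and 57.7 in D15L150 and 46.9, 55.8 and 85.2 in D15L200. In D100L150 Hif1a stood at 125, 76.99 and 88.5 FPKM and in D150L150 at 106, 87.2 and 54.04, against 125, 38.99 and 60.6 in Control. Control 1 and D100L150 1 were at about the same level, so the groups overlapped. The log2 difference for the mean of the spacer groups was 0.01 ± 0.30 (SE, adjusted p = 0.986 with limma). Egln1 (PHD2), the main oxygen-sensing hydroxylase, stood at 27.1, 31.3 and 30.6 FPKM in D15L100, 28.6, 31.1 and 28.4 in D15L150 and 28.7, 29.9 and 49.2 in D15L200. In D100L150 Egln1 stood at 54.7, 32.04 and 38.8 FPKM and in D150L150 at 32.9, 37.02 and 27.8, against 23.9, 30.4 and 28.8 in Control. All 3 D100L150 libraries exceeded Control, with 0.55 ± 0.21 (SE, adjusted p = 0.152 with limma). Egln3 (PHD3), a hydroxylase that HIF itself induces, stood at 40.1, 40.3 and 17.6 FPKM in D15L100, 24.3, 46.3 and 31.1 in D15L150 and 42.6, 39.4 and 189 in D15L200. In D100L150 Egln3 stood at 204, 52.9 and 40.3 FPKM and in D150L150 at 58.1, 53.2 and 52.00, against 45.7, 16.2 and 28.7 in Control. Egln3 was the member with the largest mean difference in D100L150, 1.42 ± 0.64 (SE, adjusted p = 0.224 with limma), and 0.71 ± 0.41 without D15L200 3 and D100L150 1 (adjusted p = 0.524). In D150L150, where no library stood out, it was 0.94 ± 0.64, adjusted p = 0.427.

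Bnip3 and Bnip3l tag mitochondria for removal, Ddit4 restrains mTORC1 and Ndrg1 is a stress-induced growth regulator. On average Bnip3 was the most abundant of them, and it stood at 61.01, 57.7 and 57.6 FPKM in D15L100, 41.3, 56.3 and 37.02 in D15L150 and 46.4, 56.5 and 112 in D15L200. In D100L150 Bnip3 stood at 263, 60.2 and 79.01 FPKM and in D150L150 at 81.8, 80.2 and 47.7, against 61.99, 50.7 and 62.2 in Control. D100L150 1 lay far above the other libraries, and the groups overlapped. The related Bnip3l stood at 36.8, 33.3 and 23.7 FPKM in D15L100, 27.3, 32.4 and 36.8 in D15L150 and 36.5, 33.3 and 53.8 in D15L200. In D100L150 Bnip3l stood at 68.8, 36.4 and 31.9 FPKM and in D150L150 at 38.00, 38.2 and 43.5, against 36.01, 24.6 and 28.1 in Control. Its D150L150 libraries all exceeded Control, with 0.43 ± 0.26 (SE, adjusted p = 0.371 with limma). Ndrg1 reached 204 FPKM in D15L200 3 and 170.01 in D100L150 1, and its D150L150 libraries, at 85.98, 77.6 and 61.1, stood just above the Control libraries at 61.04, 31.1 and 49.3. Ddit4 in D15L100 (37.1, 35.3 and 35.2) and D15L150 (28.2, 31.6 and 30.8) was below all Control libraries (91.1, 40.5 and 52.5), with -0.68 ± 0.48 and -0.92 ± 0.48 (SE, limma adjusted p = 0.9998 and 0.303).

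Other targets include a vasodilator peptide, an oxidase of protein folding, collagen prolyl hydroxylases, an ankyrin repeat gene and a histone demethylase. Adm, which encodes the vasodilator adrenomedullin, stood at 12.1, 12.5 and 11.9 FPKM in D15L100, 15.96, 11.8 and 7.26 in D15L150 and 7.72, 11.4 and 25.7 in D15L200. In D100L150 Adm stood at 37.6, 10.5 and 11.8 FPKM and in D150L150 at 17.1, 23.4 and 10.7, against 6.36, 8.85 and 13.6 in Control. Spacer libraries overlapped Control in every group, with 0.54 ± 0.37 (SE, adjusted p = 0.421 with limma) for the mean of the spacer groups. Ero1a, which reoxidises protein disulfide isomerase, stood at 7.68, 14.1 and 8.05 FPKM in D15L100, 11.4, 9.07 and 8.53 in D15L150 and 9.19, 11.6 and 31.5 in D15L200. In D100L150 Ero1a stood at 96.1, 15.8 and 12.4 FPKM and in D150L150 at 20.9, 19.9 and 14.6, against 11.3, 6.28 and 13.6 in Control. Its D150L150 libraries all exceeded Control, and D100L150 1 was 8.01 times the median library. P4ha1, a subunit of the hydroxylase that stabilises collagen, stood at 38.2, 43.04 and 34.7 FPKM in D15L100, 36.1, 31.9 and 25.9 in D15L150 and 31.9, 43.95 and 37.4 in D15L200. In D100L150 P4ha1 stood at 82.5, 38.3 and 39.5 FPKM and in D150L150 at 48.2, 48.4 and 23.1, against 25.1, 35.3 and 46.3 in Control. Only D100L150 1 was above the Control range by a wide margin, and the log2 difference in D100L150 was 0.52 ± 0.32 (SE, adjusted p = 0.359 with limma). The related gene P4ha2 did not share that maximum. P4ha2 stood at 41.6 FPKM in D100L150 1 and 24.7 in D15L200 3, within a range over all libraries of 21.2 to 47.2. Ankrd37 stood at 34.3 FPKM in D15L200 3 and 66.8 in D100L150 1, and at 17.2 or less in the other 16. It shares 26.4% of its exonic bases with opposite-strand neighbours Lrp2bp and Ufsp2 in GENCODE M21, so reads of these genes could be mixed if counting ignored strand. Other members share exonic bases too, among them Bnip3 (22.3%), Pkm (15.3%), Gpi1 (11.5%), Pfkm (10.7%) and Car9 (9.29%). For Pkm the neighbour lies on the same strand, and Pfkm and Hif1a (8.11% shared) have neighbours on both strands. Kdm3a varied 2.65-fold, from 7.61 to 20.2 FPKM.

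**Figure D5:**
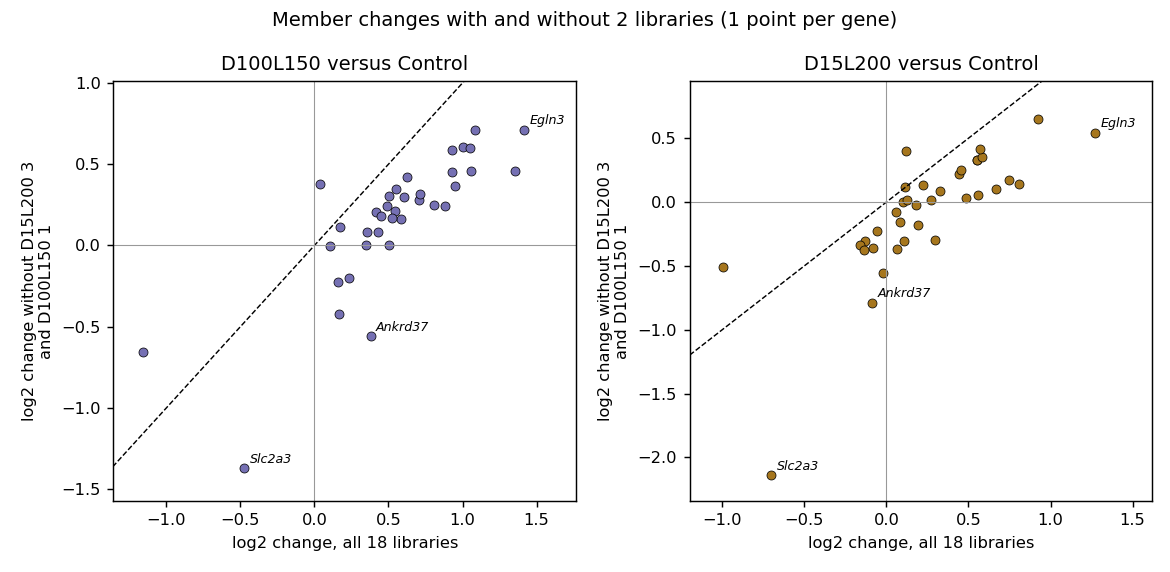
Each point is 1 of the 36 genes, with its log2 difference from Control over all 18 libraries on the x axis and without D15L200 3 and D100L150 1 on the y axis, for D100L150 (left) and D15L200 (right). The dashed line marks equal values. Most points fall below it, as D100L150 1 was the highest of its 3 libraries for 34 of 36 members, and D15L200 3 for 33. Over all genes tested these shares were 31.1% for D100L150 1 and 45.0% for D15L200 3. In D100L150 the median was 0.53 with all libraries and 0.24 without the pair.

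Further genes of the same pathways were examined as 2 lists. Of 28 other glycolysis genes 21 were expressed enough to test, and in the mean of the spacer groups 1 fell and none rose, beside 0.726% of all genes lower and 2.84% higher. Their median log2 difference was -0.31, against -0.04 for all genes. The gene that fell was Eno2, the enolase of neurons and neuroendocrine cells. In single libraries Eno2 stood at 1.498, 1.75 and 2.096 FPKM in D15L100, 1.94, 1.41 and 1.02 in D15L150 and 0.862, 0.9403 and 1.89 in D15L200. In D100L150 Eno2 stood at 0.882, 1.48 and 0.807 FPKM and in D150L150 at 1.03, 1.16 and 0.923, against 2.28, 2.79 and 2.31 in Control. Eno2 fell by 0.60 ± 0.14 on the log2 scale for the mean of the spacer groups (SE, adjusted p = 0.0314 with limma), and by 0.76 ± 0.18 in D150L150 (adjusted p = 0.0431), where 0.398% of all genes were called lower. The first of these calls was lost without Control 1, 2 or 3 (adjusted p = 0.203, 0.102 and 0.0632 in limma) or without D150L150 1 (0.0502), and the second without any 1 library of D150L150 or Control (0.0644 to 0.158). The first was also lost with no filter on low values (0.0615), with the replicate block (0.0567) and with muscle marker level as a covariate (0.0696), and the second with those 3 settings (0.0895, 0.0783 and 0.3097), TPM scaling (0.0588), voom (0.0551), a pseudocount of 0.1 (0.0518) and the compared groups alone (0.0693). Of the settings run for D150L150, only quantile scaling and leaving out D15L200 3 with D100L150 1 kept that call. The muscle forms Eno3 and Pgam2, which are on the same list, ranged from 10.4 to 175 and from 17.6 to 366 FPKM, with Pgam2 supplying 6.84 to 85.98% of the summed FPKM of Pgam1 and Pgam2. Of 40 other hypoxia genes 38 were tested and none passed in limma in any comparison, with 3 higher and 2 lower at an unadjusted p under 0.05 in the mean of the spacer groups (beside 10.8% and 11.6% of all genes) and a median of -0.02. Epas1 (HIF2A), the endothelial HIF subunit, had -0.82 ± 0.24 (SE, adjusted p = 0.0733 with limma), Rora, a nuclear receptor gene, 0.46 ± 0.14, adjusted p = 0.0848, and Fam162a, a mitochondrial HIF target, 0.78 ± 0.25, adjusted p = 0.0905, the 3 smallest p values of the list. All 10 blood endothelial markers were below 0 in the same comparison, with a median of -0.81, 9 at an unadjusted p under 0.05 and none passing in limma. Their summed FPKM was 127 to 365 in the spacer libraries, against 821, 227 and 374 in Control, and their part in the Epas1 value was not tested.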

How the data were processed

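The authors deposited FPKM values per gene for 18 libraries, made per the labels' protocols from TRIzol total RNA with the VAHTS Universal V6 kit. Builds and tools listed per the submitters' processing notes are mm10, HTSeq, HISAT2, fastp, DESeq2 and R 3.2.0, with no role or order. Annotation and strand setting: not given in the sources used here. Values within a library are whole multiples of 1 fragment, and whole fragments were recovered for 100% of 27743 genes (tolerance 1e-06 fragments), which gave the library totals. For each gene the smallest whole numbers with its ratios between libraries were taken. Counts that share a common factor, as in a gene seen in a single library, can thus be too low.

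Genes at 1 FPKM or more in at least 3 libraries (13078) were fitted as log2(FPKM + 1) with limma 3.58.1 in R 4.3.3, all 6 groups sharing 1 estimate of spread, and p-values were Benjamini-Hochberg adjusted over all genes tested. The fit was tested on simulated data. Members, lists and tests were chosen with earlier results of these data known. Values in every library are given for the member with the highest mean FPKM and the member with the smallest p for the mean of the spacer groups in each role, and for further genes of the pathways that were called (or the 3 with the smallest p); Egln3, Ero1a, Ankrd37, Ndrg1, Pfkm, Pfkl, Pfkp and others were chosen after their values were seen. Alternatives were another pseudocount, no filter, quantile and TPM scaling, voom, a muscle covariate, only the groups compared, a replicate block and leaving out libraries. Correlations used 100000 permutations of all 18 libraries, regardless of group.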

Additional observations from a re-analysis of the deposited data

How the results depend on the processing

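No member was called in any of 9 comparisons in the fit reported, and this held under every other pseudocount, filter, scaling and model run, with these exceptions. Leaving out 1 library at a time gave 0 to 2 members called for D100L150 against Control, the 2 being Pgam1 and Pdk1 without D100L150 2. Without both D15L200 3 and D100L150 1, an alternative chosen after seeing the data, 1 member (Car9) was called for D150L150 against Control. Over single leave-outs the members' median log2 difference ranged from 0.12 to 0.27 for the mean of the spacer groups, from 0.02 to 0.41 in D15L200, from 0.24 to 0.73 in D100L150 and from 0.12 to 0.41 in D150L150, so the order of the last 3 groups is not settled. With the replicate block 0 members were called in each comparison; same-numbered libraries had correlations from -0.657 to 0.53, with 18 of 45 pairs over 0.1, so the numbers were not read as pairs. Counts over all genes depended more on single libraries, at 0 to 597 for the mean of the spacer groups (466 with all libraries), 0 to 160 for D15L200 (204), 0 to 307 for D100L150 (181) and 0 to 274 for D150L150 (317). Of the named single-gene values, 20 lost a call, all of Eno2, and 8 gained one (Rora 2, and Car9, Fam162a, Pgam1, Pdk1, Eno2 and Epas1 1 each). A further 102 changed sign with no call in either fit, and 0 reversed a call; the cause was not tested. With 3 libraries a group, the spread within groups limits what can be called.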
